A study of Mus musculus with 6 samples.

Results

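The genes described here carry the type I interferon signal from the cell surface to the nucleus. They were chosen by name and are the receptor chains Ifnar1 and Ifnar2, the receptor-bound kinases Jak1 and Tyk2, the transcription factors Stat2 and Irf9, and the interferon regulatory factors Irf7, Irf1 and Irf3. All 9 had a row among the 11604 genes of the table analysed here. RNA was sequenced from CT26, a mouse colon carcinoma cell line derived from a BALB/c animal, grown in culture and labelled as wild type. A group of 3 libraries came from cells given DMSO, the solvent, and a group of 3 from cells given 10 µM irinotecan (CPT-11), a prodrug of the topoisomerase I poison SN-38, for 24 h. No source used here gives the dose or exposure time of DMSO, or says that replicates were grown separately. The p-values therefore measure no more than the spread of these 6 samples, and that spread may be technical. The design text speaks of duplicates, whereas 3 samples a group are labelled. The title of the series names anti-tumor immunity as its question, and the comparison of irinotecan with DMSO is the only one the labels allow.

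As background, type I interferons bind a receptor made of the IFNAR1 and IFNAR2 chains, which activates the kinases TYK2 and JAK1 bound to them. The kinases phosphorylate STAT proteins, and STAT2 and IRF9 take part in the complex ISGF3. ISGF3 enters the nucleus and binds the interferon-stimulated response element (ISRE) of its target genes, while the gamma-activated site (GAS) is another motif of the pathway. IRF3 is present in most cells in a latent form and, once phosphorylated downstream of nucleic acid sensors, starts interferon transcription; IRF7 does the same but is itself an interferon-induced gene, so that it amplifies the response.

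The libraries held 16052326 to 17294496 counts. Of the 16 haematopoietic markers looked for, 1 had a row, Cd68, at 2.01 to 3.07 CPM (counts scaled to library size) with DMSO and 3.72 to 4.23 CPM with irinotecan. Cd68 rose 1.7-fold (edgeR adjusted p = 0.018), and the call was lost when DMSO replicate 1 or 3 or irinotecan replicate 1 or 3 was left out (at most 0.070). Ptprc, which marks white blood cells, and Siglech, which marks plasmacytoid dendritic cells, had no row. Of the epithelial markers, Krt18 had a row and Epcam, Cdh1, Krt8, Krt19, Vil1, Cdx2 and Lgr5 had none, while the mesenchymal genes Col1a1, Col3a1, Pdgfra and Pdgfrb had one. The epithelial, fibroblast and endothelial markers together, 5 of 14 with a row, summed to 309 to 319 CPM with DMSO and 396 to 402 CPM with irinotecan, but they did not all move in 1 direction. The collagen genes Col1a1 and Col3a1 rose, from a mean of 168 to 232 CPM and from 57.9 to 86.1 CPM (log2 fold changes 0.47 ± 0.046 and 0.57 ± 0.057, SE, edgeR adjusted p = 2.3e-07 and 2.6e-07), while Pdgfra and Pdgfrb did not pass the test. The only epithelial marker with a row, Krt18, fell from 53.1 ± 3.9 to 45.3 ± 2.62 CPM (SD, n = 3, edgeR adjusted p = 0.025), a call that ended without DMSO replicate 2 or irinotecan replicate 1 or 3 (at most 0.14). The part of cells with these markers, or with Cd68, in the results was not tested.

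With irinotecan, 4 of the 9 genes rose, Irf7, Stat2, Irf1 and Irf9, and they are all transcription factors. The receptor chains, both kinases and Irf3 did not pass the test in either direction. Irf7 rose 2.64-fold and Stat2 2.09-fold, Irf1 1.38-fold and Irf9 1.2-fold. A gene was counted as risen or fallen at an adjusted p under 0.05 in edgeR's quasi-likelihood test, adjusted over 11599 genes tested, of which 11.8% were higher and 10.3% lower with irinotecan (22.1% in all). When libraries were scaled by their totals alone, 66.1% of all calls were higher, against 53.5% with the scaling used here; the calls of the 9 genes were the same under both. No gene of the 9 was lower, by edgeR, DESeq2 or limma-voom (0 in each), and 0 were lower at an unadjusted p under 0.05. The median log2 fold change of the 9 was 0.06, against 2.6e-04 over all genes tested. The values are per bulk RNA sample, in which fewer cells expressing a gene and less of its RNA per cell cannot be told apart.

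**Figure D1:**
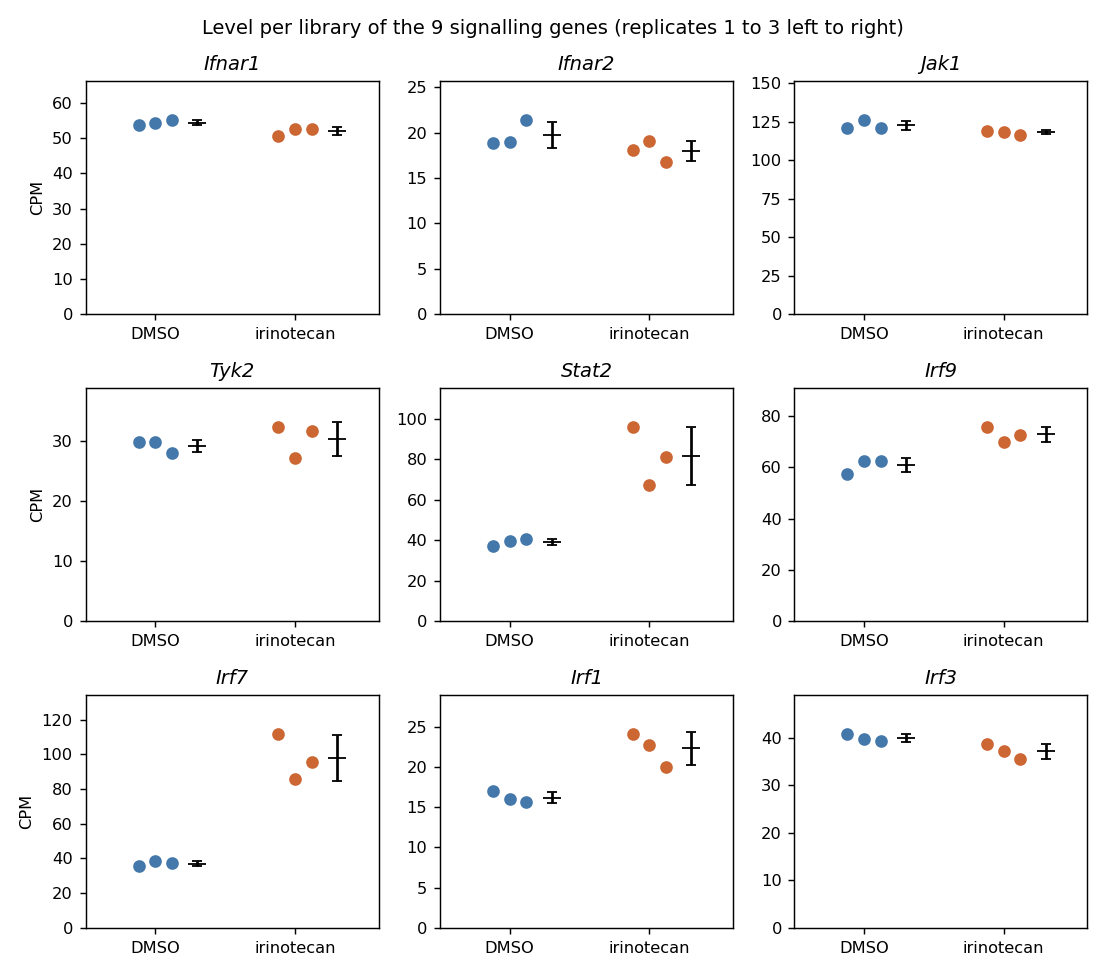
Level of each of the 9 genes in CPM, from 0, in the DMSO and irinotecan libraries (points, replicates 1 to 3 from left to right; cross and bar, mean and SD of 3). The irinotecan points of Irf7 (85.7 to 112) and Stat2 (67.4 to 96.1) lie far above the DMSO points, those of Irf9 and Irf1 lie above by less, and those of Ifnar1, Ifnar2, Jak1, Tyk2 and Irf3 lie at nearly the same height in both groups.

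The receptor chains stood at nearly the same level in both groups. Ifnar1 (ENSMUSG00000022967, chromosome 16, 91282126 to 91304329, GRCm39), the chain that binds TYK2, was at 53.7, 54.3 and 55.2 CPM with DMSO and at 50.6, 52.6 and 52.7 CPM with irinotecan. The groups of Ifnar1 did not overlap, yet the difference was small, with a log2 difference of -0.07 ± 0.062 (SE, adjusted p = 0.49). Ifnar2 (ENSMUSG00000022971, chromosome 16, 91169671 to 91202477), the chain that binds JAK1 and has the higher affinity for interferon, was at 18.8, 19 and 21.4 CPM with DMSO and at 18.1, 19 and 16.8 CPM with irinotecan. Its groups overlapped, and its log2 fold change was -0.14 ± 0.094 (SE, adjusted p = 0.33). The 95% interval of the ratio of irinotecan to DMSO ran from 0.873 to 1.04 for Ifnar1 and from 0.795 to 1.04 for Ifnar2.

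Both genes lie in a cluster of cytokine receptor genes on the plus strand of chromosome 16, in the order Ifnar2, Il10rb, Ifnar1, Ifngr2. Il10rb, a chain shared by the receptors of interleukin 10 and of the type III interferons, starts 575 bp from the end of Ifnar2 and was at 9.92 ± 0.866 CPM with DMSO and 10.6 ± 0.146 CPM with irinotecan (SD, n = 3). Ifngr2, the accessory chain of the interferon gamma receptor, was at 14.9, 14.2 and 13.9 CPM with DMSO and at 16.9, 15.7 and 15.6 CPM with irinotecan. Its groups did not overlap, but it missed the threshold (log2 fold change 0.17 ± 0.098, edgeR adjusted p = 0.24). Thus 0 of the 4 genes of the cluster passed, where 22.1% of all genes tested did, and 4 genes are too few to differ clearly from that share. Ifngr1, the ligand-binding chain of that receptor, encoded on another chromosome, was at 23 ± 1.49 and 25.6 ± 1.07 CPM (SD, n = 3, edgeR adjusted p = 0.23).

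The kinases did not pass either. Jak1 (ENSMUSG00000028530, chromosome 4, 101009564 to 101122479), which serves the receptors of many cytokines, had the highest CPM of the 9 genes with DMSO, at 121, 126 and 121 CPM, and was at 119, 118 and 117 CPM with irinotecan. The irinotecan libraries of Jak1 all lay just below the DMSO libraries, with a log2 difference of -0.06 ± 0.05 (SE, adjusted p = 0.47). Tyk2 (ENSMUSG00000032175, chromosome 9, 21015364 to 21042539), the kinase of IFNAR1, was at 29.8, 29.8 and 28 CPM with DMSO and at 32.4, 27.1 and 31.6 CPM with irinotecan. Its irinotecan replicate 2 was the lowest of the 6 libraries and its irinotecan replicate 1 the highest, and the log2 fold change was 0.06 ± 0.084 (SE, adjusted p = 0.68). The 95% interval of the ratio ran from 0.895 to 1.03 for Jak1 and from 0.922 to 1.17 for Tyk2.

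Stat2 (ENSMUSG00000040033, chromosome 10, 128106428 to 128128718), the transactivating subunit of ISGF3, was at 37.3, 39.4 and 40.6 CPM with DMSO and at 96.1, 67.4 and 81 CPM with irinotecan. Every irinotecan library was well above every DMSO library, and replicate 1 was the highest and replicate 2 the lowest of the irinotecan group. The log2 fold change was 1.06 ± 0.11 (SE, adjusted p = 4.2e-05), and 0.922% of all genes tested had a larger one. The SD of the irinotecan libraries was 14.3 CPM, against 1.65 CPM in the DMSO group. Irf9 (ENSMUSG00000002325, chromosome 14, 55841028 to 55847487), the DNA-binding subunit of ISGF3, was at 57.5, 62.3 and 62.6 CPM with DMSO and at 75.8, 70 and 72.7 CPM with irinotecan. Its groups did not overlap either, but its rise was small, of 0.26 ± 0.062 on the log2 scale (SE, adjusted p = 0.0045), and 14.4% of all genes tested had a larger one.

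Both genes of ISGF3 described here rose, by unequal amounts, Stat2 by more than Irf9. In the deposited FPKM values, which are scaled by gene length, the ratio of Irf9 to Stat2 was 1.7, 1.74 and 1.7 with DMSO. With irinotecan it was 0.868, 1.14 and 0.988. In every DMSO library Irf9 thus had the higher FPKM, and with irinotecan the 2 genes were about level in FPKM. The lengths implied by the counts, their totals and the FPKM were 5.39 kb for Irf9 and 5.93 kb for Stat2. How these lengths were set is not given here, so FPKM does not settle which gene had more transcripts. The change of the ratio between groups does not depend on the lengths. The ratio was lower in every irinotecan library than in every DMSO library. The exact two-sided permutation test over the 6 libraries gave p = 0.1, the smallest that 3 against 3 allows, and adjusted p = 0.15 over the 6 ratios computed, of which 5 are given here.

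The start of Irf9 overlaps the end of a neighbour, Rnf31, which also rose. Rnf31, which encodes the HOIP subunit of the linear ubiquitin ligase complex, lies upstream on the same strand and its last 123 bp overlap the start of Irf9 in the table. Rnf31 was at 37.3 ± 1.83 CPM with DMSO and 44.7 ± 2.28 CPM with irinotecan (SD, n = 3), with a log2 fold change of 0.26 ± 0.072 (SE, edgeR adjusted p = 0.012). Leaving out DMSO replicate 1 (0.053) or irinotecan replicate 1 (0.068) ended that call. No source used here says how reads in the shared stretch were counted. Beyond Rnf31 lie Psme2 and Psme1, subunits of the interferon-induced PA28 activator of the proteasome, chosen here after their values were seen. Psme2 rose from 30.6 ± 0.455 to 48.1 ± 6.72 CPM and Psme1 from 91 ± 1.33 to 114 ± 5.24 CPM (SD, n = 3; log2 fold changes 0.65 and 0.33, edgeR adjusted p = 1.4e-05 and 1.9e-04). On the other side Ipo4, an importin, was at 77.4 ± 3.57 and 76.1 ± 2.86 CPM (SD, n = 3, edgeR adjusted p = 0.80).

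Irf7 (ENSMUSG00000025498, chromosome 7, 140842619 to 140846394) was at 35.4, 38.4 and 37.2 CPM with DMSO and at 112, 85.7 and 95.6 CPM with irinotecan. The lowest irinotecan library was more than double the highest DMSO library. The log2 fold change was 1.4 ± 0.082 (SE, adjusted p = 7.8e-10), and 0.267% of all genes tested had a larger one. Among the 933 genes tested that the authors' deposited table assigns to a transcription factor family, of which 68 were higher and 105 lower, Irf7 had the largest log2 fold change and Stat2 the third, while Irf1 ranked 45 and Irf9 116. The gene between Irf7 and Stat2 in that order, Zfp600, was at 0.534 CPM with DMSO and so rests on few counts.

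Irf1 (ENSMUSG00000018899, chromosome 11, 53660841 to 53669200), an interferon-induced factor that drives genes of antigen presentation, was at 17, 16 and 15.6 CPM with DMSO and at 24.1, 22.7 and 20 CPM with irinotecan. The groups were separate, and the gap between them was narrower than that of Irf7 or Stat2, at 0.46 ± 0.096 on the log2 scale (SE, adjusted p = 0.0015). Irf3 (ENSMUSG00000003184, chromosome 7, 44647072 to 44652272) was at 40.9, 39.8 and 39.3 CPM with DMSO and at 38.8, 37.3 and 35.5 CPM with irinotecan. All irinotecan libraries of Irf3 were below all DMSO libraries, by little, with a log2 difference of -0.11 ± 0.071 (SE, adjusted p = 0.31; 95% interval of the ratio 0.838 to 1.03). Irf3, Ifnar1 and Jak1 were thus 3 of 9 genes with irinotecan below DMSO in all libraries, and none of the 3 passed the test; over all genes tested 17.8% did not overlap in that direction, 19.3% in the other and 37.1% in either.

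**Figure D2:**
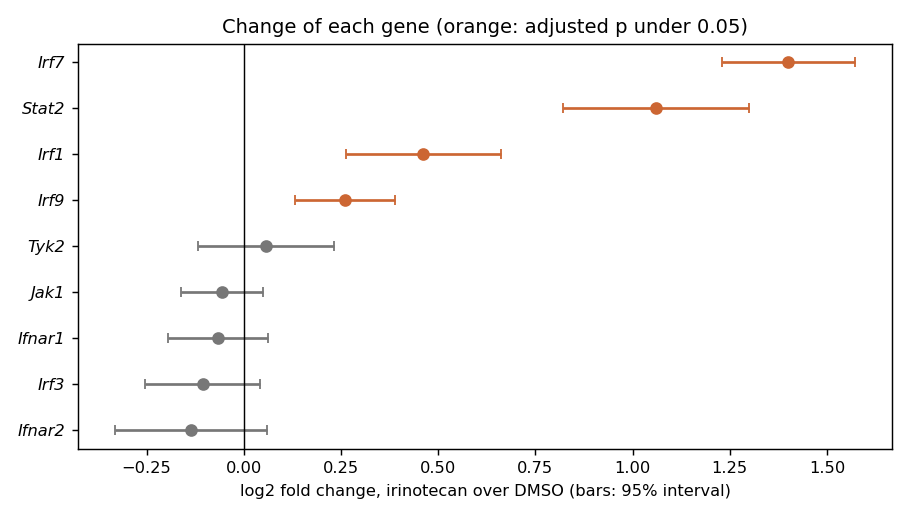
Log2 fold change of irinotecan over DMSO for each of the 9 genes (points) with its 95% interval from the quasi-likelihood fit (bars); orange marks an adjusted p under 0.05. Irf7 (1.4), Stat2 (1.06), Irf1 (0.46) and Irf9 (0.26) lie right of 0, and the intervals of Tyk2, Jak1, Ifnar1, Irf3 and Ifnar2 include 0.

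Within the IRF family, the inducible Irf7 lay below the constitutive Irf3 in FPKM with DMSO and above it with irinotecan. The FPKM ratio of Irf7 to Irf3 was 0.789, 0.879 and 0.862 with DMSO and 2.63, 2.1 and 2.45 with irinotecan. Irf3 thus had the higher FPKM in all DMSO libraries and Irf7 in all irinotecan libraries. Which of the 2 had more transcripts depends on the implied lengths, 3.78 kb for Irf7 and 3.45 kb for Irf3. The ratio of Irf1 to Irf3 went from 0.35 ± 0.00774 to 0.518 ± 0.0266 (SD, n = 3), with Irf3 at the higher FPKM in every library. For both ratios the exact permutation test gave p = 0.1, the smallest possible, and adjusted p = 0.15. The ratios of Ifnar1 to Ifnar2 (1.55 ± 0.0883 and 1.62 ± 0.115, SD, n = 3, exact p = 0.6) and of Tyk2 to Jak1 (0.25 ± 0.00798 and 0.271 ± 0.0255, exact p = 0.4) overlapped between the groups. Irf3 overlaps Bcl2l12 on the opposite strand over 1065 bp and Irf7 overlaps Phrf1 on the opposite strand over 45 bp, and the strandedness of the counting is not given, so that reads of these stretches cannot be assigned with certainty. Bcl2l12 was at 5.4 and 5.58 CPM (adjusted p = 0.87) and Phrf1 at 108 and 99.6 CPM (adjusted p = 0.16).

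The order of the 9 genes by FPKM changed at the top. Abundance here means FPKM, so the order depends on the gene lengths used. With DMSO, Jak1 was the most abundant at 16.8 ± 0.256 FPKM, followed by Irf3 (11.5 ± 0.255), Irf9 (11.2 ± 0.518), Irf7 (9.69 ± 0.346), Ifnar1 (9.05 ± 0.182), Stat2 (6.52 ± 0.292), Ifnar2 (5.87 ± 0.467), Tyk2 (4.2 ± 0.118) and Irf1 (4.02 ± 0.177; all SD, n = 3). The libraries of Irf3 and Irf9, of Stat2 and Ifnar2, and of Tyk2 and Irf1 overlapped, so those neighbours were not ordered beyond their spread. With irinotecan, Irf7 came first at 26.1 ± 3.55 FPKM and Jak1 next at 16.5 ± 0.18, followed by Stat2 (13.9 ± 2.44), Irf9 (13.6 ± 0.547), Irf3 (10.9 ± 0.477), Ifnar1 (8.83 ± 0.199), Irf1 (5.66 ± 0.529), Ifnar2 (5.45 ± 0.337) and Tyk2 (4.46 ± 0.418). Here Jak1 and Stat2, Stat2 and Irf9, and Irf1 and Ifnar2 overlapped. Among all genes of the table, Irf7 moved from the 57th to the 81.7th percentile of mean FPKM and Stat2 from the 46th to the 66.8th, while Irf1 was at the 33.9th and the 40.9th.

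**Figure D3:**
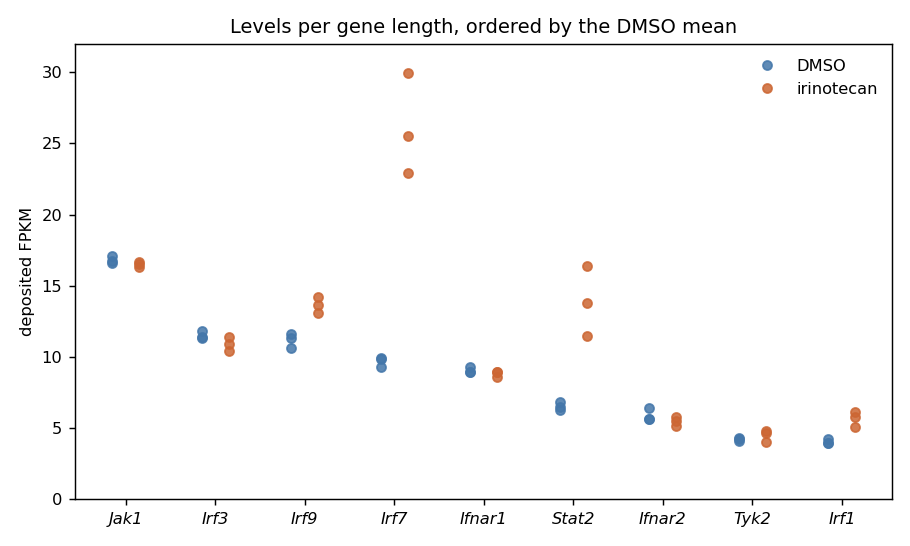
Deposited FPKM, from 0, of each gene in the 3 DMSO (blue) and 3 irinotecan (orange) libraries, ordered by the DMSO mean. Irf7 goes from the middle of the order with DMSO (9.29 to 9.95) to its top with irinotecan (22.9 to 29.9), and Jak1 stays between 16.3 and 17.1.

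The promoter windows of the genes that rose are shown because interferon-activated factors bind known motifs in promoters. RefSeq windows of 300 bases (250 before a transcription start and 50 from it on) were at hand for all 9 genes on the build GRCm38.p6, which is older than that of the table. They were searched on both strands for the core of the ISRE, which is GAAA, any 2 bases and GAAA again, and for TTCNNNGAA, the GAS, which reads the same on both strands; in these windows no match of one overlapped a match of the other. The Stat2 window (chr10:128270248-128270547, plus strand) held 1 ISRE core, in capitals, as its reverse complement, at -222 to -213 from the start site. The first of the Irf1 windows (chr11:53769764-53770063, plus strand) held 1 GAS, in capitals, at -90 to -82. The Irf7 window (chr7:141266375-141266674, minus strand, written 5′ to 3′ along the gene) held neither and is shown as that of the gene with the largest rise.
Stat2: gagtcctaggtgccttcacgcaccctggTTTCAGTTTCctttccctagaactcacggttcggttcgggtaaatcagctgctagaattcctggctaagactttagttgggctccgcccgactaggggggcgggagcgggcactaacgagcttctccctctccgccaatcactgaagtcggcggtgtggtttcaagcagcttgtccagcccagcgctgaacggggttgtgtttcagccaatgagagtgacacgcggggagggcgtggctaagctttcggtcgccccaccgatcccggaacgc
Irf1: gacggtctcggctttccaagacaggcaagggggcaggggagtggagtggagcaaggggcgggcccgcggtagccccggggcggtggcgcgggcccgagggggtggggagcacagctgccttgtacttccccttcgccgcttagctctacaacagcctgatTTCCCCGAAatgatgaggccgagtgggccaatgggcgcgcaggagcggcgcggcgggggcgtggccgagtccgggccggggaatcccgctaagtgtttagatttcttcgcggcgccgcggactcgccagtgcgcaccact
Irf7: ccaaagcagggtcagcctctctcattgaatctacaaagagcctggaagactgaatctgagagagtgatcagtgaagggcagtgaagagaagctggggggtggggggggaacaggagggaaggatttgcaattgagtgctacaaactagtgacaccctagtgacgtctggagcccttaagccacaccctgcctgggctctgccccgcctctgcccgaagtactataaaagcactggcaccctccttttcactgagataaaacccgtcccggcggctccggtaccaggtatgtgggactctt

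A GAS was also found in the windows of Ifnar1 (TTCACGGAA, at -5 to 4) and Ifnar2 (TTCCTGGAA, at -214 to -206), whose RNA did not pass the test. The windows of Jak1, Tyk2, Irf9 and Irf3 held neither motif. Of all 32851 windows, 3.44% held an ISRE core and 8.3% a GAS, and of the genes of the table with a window, 3.87% and 8.09%. A GAS in 3 of 9 genes and an ISRE core in 1 of 9 are descriptions of these windows and do not show binding; a missing match says only that these letters are not in this window. By comparison, 11 of 26 genes of the ISGF3 target list with a window held an ISRE core (42.3%) and 7 a GAS (26.9%). Genes of that list were chosen as targets of ISGF3, which binds the ISRE, so its ISRE share is not independent evidence.

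The rises of Irf7, Stat2 and Irf9 had the same order across the irinotecan libraries, which for Stat2 shows in the CPM above. On the log2 CPM scale relative to the DMSO mean, Irf7 stood at 1.595, 1.21 and 1.37 in irinotecan replicates 1, 2 and 3 and Irf9 at 0.32, 0.20 and 0.26. The mean of 33 targets of ISGF3 stood at 1, 0.78 and 0.92 in the same libraries while the DMSO libraries ranged from -0.06 to 0.06. All of these were highest in replicate 1 and lowest in replicate 2. Irf1 was also highest in replicate 1 but lowest in replicate 3, at 0.57, 0.49 and 0.31. The order was not confined to risen genes: Tyk2, which did not pass the test, had it too, at 0.15, -0.10 and 0.12. The order of a single target can differ from that of the mean, as for Usp18, at 69, 60.3 and 71.4 CPM. Whether the shared order goes beyond chance was not tested.

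**Figure D4:**
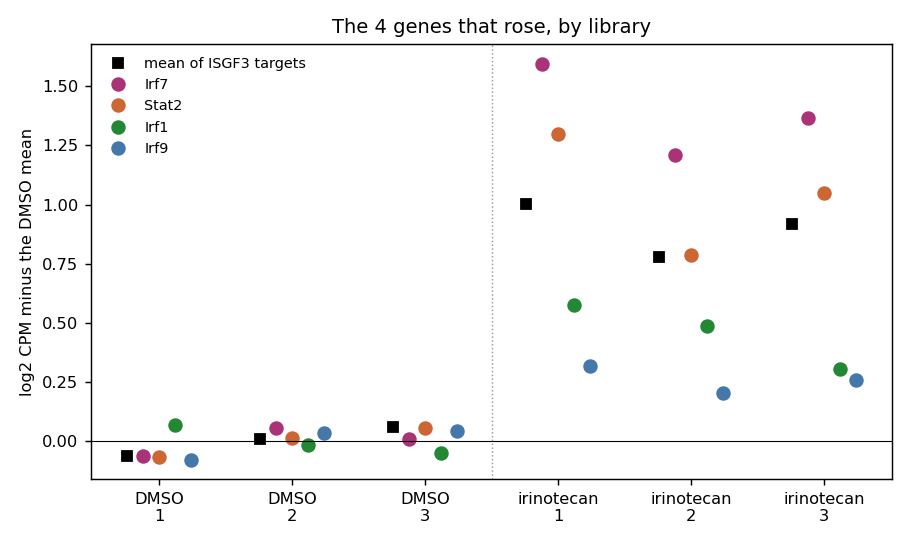
Log2 CPM of Irf7, Stat2, Irf1 and Irf9 minus their own DMSO mean in each library (circles), beside the mean of 33 ISGF3 targets (black squares). All DMSO values lie near 0; with irinotecan, Irf7, Stat2, Irf9 and the target mean are highest in replicate 1 and lowest in replicate 2, and Irf1 is lowest in replicate 3.

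The genes whose profile over the 6 libraries lay closest to that of a risen gene were looked up by the root mean square difference of log2 CPM, each relative to its own DMSO mean, among 9451 genes with a mean of at least 5 CPM. For Stat2 they were Ddx60 (0.051), a helicase-like antiviral protein, Oas3 (0.072), which makes 2'-5' oligoadenylates, and Trim30a (0.086), a TRIM protein. Ddx60 rose from 11.2 ± 0.256 to 24.2 ± 4.04 CPM and Oas3 from 65.9 ± 3.34 to 137 ± 18.3 CPM (SD, n = 3), and all are known interferon-induced genes. For Irf7 they were Itgb4 (0.115), an integrin chain, Dcxr (0.127), a carbonyl reductase, and Ephx1 (0.128), an epoxide hydrolase, and no candidate lay within 0.1. For Irf9, with 666 genes within 0.1, they were Mnt (0.022), a partner of MAX, its neighbour Rnf31 (0.033) and Vcl (0.035), vinculin. For Irf1, with 145 genes within 0.1, they were Aunip (0.029), Ly6e (0.033), an interferon-induced membrane protein, and Ctsa (0.035), a lysosomal carboxypeptidase; the call of Aunip was lost without irinotecan replicate 1 (adjusted p = 0.051). These genes share libraries with the genes they resemble, and likeness over 6 libraries is a description only.

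Of the other Janus kinases, Jak2 and Jak3 were at 79.4 ± 5.21 and 23.1 ± 1.55 CPM with DMSO and at 76 ± 1.61 and 25.2 ± 1.12 CPM with irinotecan (SD, n = 3), and neither passed the test. Stat3, a factor of interleukin 6 signalling, had a log2 fold change of 0.16 ± 0.065 (SE, edgeR adjusted p = 0.079) and passed under scaling by totals alone (0.040) and with the replicate number as a block (0.040). Of 6 other IRFs and IRF2-binding proteins tested, 2 rose and 4 did not pass, and 0 were lower by edgeR, DESeq2 or limma-voom or at an unadjusted p under 0.05, with a median of 0.21. Among all genes tested 11.8% rose and 10.3% fell, and these 6 were not tested against those shares. Irf8, a factor of myeloid and lymphoid cells, was at 2.89, 1.96 and 2.61 CPM with DMSO and at 5, 4.94 and 3.32 CPM with irinotecan (log2 fold change 0.83 ± 0.23, SE, edgeR adjusted p = 0.012). Irf2, which competes with IRF1 for its sites, was at 22.2, 24.9 and 24.7 CPM with DMSO and at 30.2, 28.3 and 27 CPM with irinotecan (0.25 ± 0.085, edgeR adjusted p = 0.036). Both calls were fragile: that of Irf8 was lost without DMSO replicate 2 or irinotecan replicate 1 or 2 (adjusted p at most 0.073), and that of Irf2 with DESeq2 and without DMSO replicate 1 or irinotecan replicate 1 or 2 (at most 0.16), so that 0 of the 6 rose without irinotecan replicate 1 and 0 without irinotecan replicate 2.

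Of 16 negative regulators of interferon signalling tested, 5 rose and 3 fell, 8 missed the threshold, and the median was -0.06. Over all genes tested, 11.8% rose and 10.3% fell, and whether the list differs from those shares was not tested. Usp18, which removes ISG15 from proteins and blocks IFNAR2, was at 27.1, 28.7 and 30 CPM with DMSO and at 69, 60.3 and 71.4 CPM with irinotecan, 2.34-fold higher (edgeR adjusted p = 2.5e-10). Socs1, an inhibitor of Janus kinases, was at 8.98, 9.76 and 8.21 CPM with DMSO and at 12.3, 12.4 and 12.4 CPM with irinotecan (edgeR adjusted p = 0.0078). The rise of Usp18 was thus of the size of those of Irf7 and Stat2, and that of Socs1 of the size of that of Irf1. Pias3, an inhibitor of STAT3, rose from 29.8 ± 2.84 to 40.5 ± 3.14 CPM, and Socs2, a regulator of growth hormone signalling, fell from 32.3 ± 0.518 to 26.4 ± 0.51 CPM (SD, n = 3). Socs4 and Socs5 fell by 0.21 and 0.14 on the log2 scale (edgeR adjusted p = 0.037 and 0.041). Scaling by total counts alone ended both calls, as did leaving out DMSO replicate 2 or irinotecan replicate 1 or 2. That of Socs4 was also lost without DMSO replicate 3 and that of Socs5 without DMSO replicate 1 or irinotecan replicate 3 (adjusted p at most 0.19 and 0.15). The number that rose was 3 without DMSO replicate 1 or 3 or irinotecan replicate 1, and the number that fell was 1 under scaling by totals alone, and 1 without DMSO replicate 2 or irinotecan replicate 1 or 2.

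Of 17 genes that act upstream of IRF3 and IRF7, 5 rose and 1 fell, 11 missed the threshold, and the median was 0.01. The shares over all genes tested were 11.8% for a rise and 10.3% for a fall, and the list was not tested against them. The genes of the list with the smallest p were the RNA sensors: Ddx58, which encodes RIG-I, rose from 58.9 ± 2.3 to 98.6 ± 9.74 CPM, Ifih1, which encodes MDA5, from 37.4 ± 1.78 to 61.3 ± 5.05 CPM, and Tlr3 from 9.36 ± 0.984 to 16.3 ± 1.56 CPM (SD, n = 3). Tbk1, the kinase that phosphorylates IRF3 and IRF7, was at 60.9 ± 2.98 and 59.4 ± 4.43 CPM (SD, n = 3, edgeR adjusted p = 0.74), and was added here after its value was seen. Myd88, an adaptor of Toll-like receptors, fell from 42.7 ± 1.48 to 36 ± 0.686 CPM (SD, n = 3, edgeR adjusted p = 0.014); omitting DMSO replicate 2 ended this call (0.057). Of the 21 interferon genes looked for, Ifnb1 among them, 0 had a row in the table, in which genes with few counts were not listed, so their level is not analysed here.

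All 33 ISGF3 targets tested, of 36 looked for, rose, with log2 fold changes from 0.25 to 1.64 and a median of 0.94. The share of all genes tested that rose was 11.8%. However, the list was drawn up with earlier results of these data known and is not independent evidence of its direction. The smallest p belonged to Usp18, Oasl2 (87.4 ± 8.52 to 191 ± 15.9 CPM) and Oas2 (30.3 ± 3.5 to 64.1 ± 5.36 CPM; SD, n = 3). Irf7 rose more than the median target, Stat2 about as much, and Irf1 and Irf9 less.

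**Figure D5:**
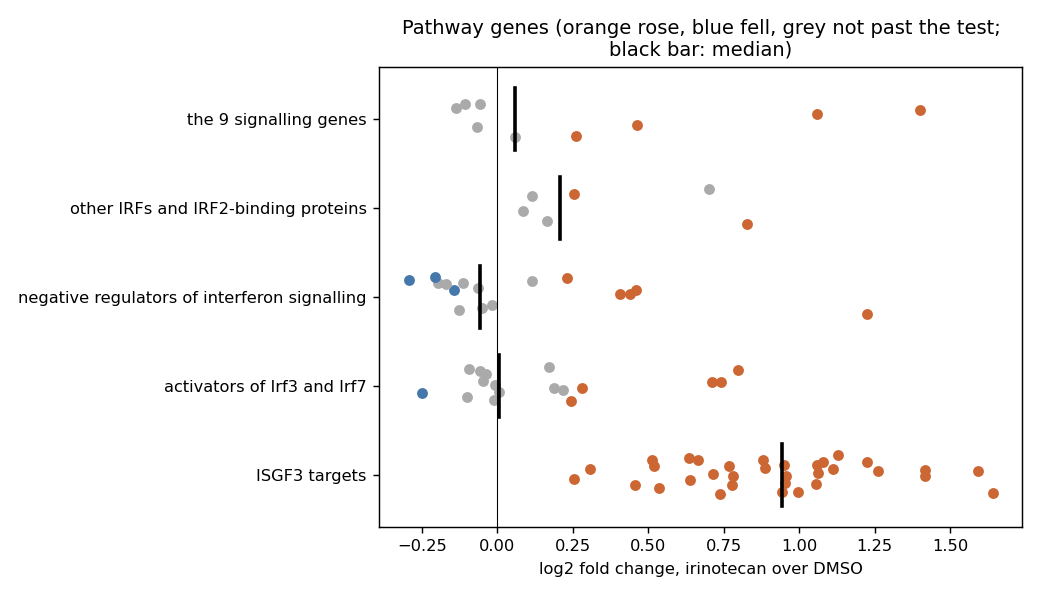
Log2 fold change of irinotecan over DMSO for each tested gene (points; orange rose, blue fell, grey did not pass) of the 9 signalling genes and of 4 pathway lists, with the list median as a black bar. The targets of ISGF3 all lie right of 0 (median 0.94), while the 9 signalling genes split into 4 that rose and 5 that lie near 0.

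The authors' deposited table gives log2 fold changes with the opposite sign, DMSO over irinotecan, with a correlation of -1.0 across genes with the counts. In it Irf7 stood at -1.4 and Stat2 at -1.06, both with the mark "down", and the other members of the group had no mark. Irf1 (-0.46, adjusted p = 0.0012) and Irf9 (-0.26, adjusted p = 0.0038) had a small adjusted p there but an absolute value below 1, and the smallest absolute value of any marked gene was 1. The largest deposited adjusted p of any marked gene was 0.16, so the mark did not require an adjusted p under 0.05.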

How the data were processed

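The genes and lists were chosen with earlier results of these data known. The submitters' processing notes name the build GRCm39 and, without roles, edgeR 3.24.3, StringTie 1.3.4d, fastp 0.19.3, DESeq2 1.22.1, featureCounts 1.6.2 and HISAT2 2.1.0. The deposited table holds, per the file headers, whole-number counts and FPKM values for every gene in each library, and the authors' own log2 fold change, p-value and adjusted p-value per gene. No deposited count was below 1 and no gene summed to under 58, so genes with few counts are not listed.

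Counts were tested over the whole table in R 4.3.3 with edgeR 4.0.16 (default filterByExpr, 11599 genes kept, TMM, robust glmQLFit and glmQLFTest, Benjamini-Hochberg, threshold 0.05 on the adjusted p). In simulated data with a spread that varied by gene, the share of false calls was above that threshold, and with a spread that followed the trend it was below, so calls near the threshold are the least certain. Columns and groups were matched by title. CPM use TMM library sizes, log2 CPM a prior count of 2; the standard error is the log2 fold change over the square root of F, and 95% intervals use the degrees of freedom of the fit. Depth was 16052326 to 17294496 counts per library and the biological coefficient of variation 5.57%. Between replicates the chi-square per degree of freedom was 4.24 to 6.45, above sampling noise, so none was counted as a repeat. DESeq2 1.42.0, limma-voom (limma 3.58.1), other scalings and filters, a replicate block and leaving out each library were the alternatives.

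Named are the 9 genes, Irf2, Ifngr1, Ifngr2, Usp18, Socs1 and Ifnb1; from every list, at most 3 genes higher and 3 lower past the threshold, with groups that do not overlap and the smallest p; the 3 genes most like each risen gene; and genes overlapping a member. Il10rb, Jak2, Jak3, Stat3, Zfp600 and others so described were added after their values were seen. An item of this rule, and the results that need it, are not reported here.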

Additional observations from a re-analysis of the deposited data

How the results depend on the processing

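The 4 rises and the 5 results short of the threshold kept their direction and their side of it in all 13 alternatives. The highest adjusted p over them was 0.0034 for Stat2, 0.037 for Irf9, 3.8e-07 for Irf7 and 0.018 for Irf1, and the lowest was 0.43 for Ifnar1, 0.28 for Ifnar2, 0.36 for Jak1, 0.34 for Tyk2 and 0.25 for Irf3. The log2 fold change ran from 1.29 to 1.49 for Irf7, 0.93 to 1.18 for Stat2, 0.40 to 0.53 for Irf1 and 0.22 to 0.29 for Irf9. The 5 ratios given kept their direction without any 1 library. Over all genes, leaving out a library gave 804 to 1211 higher and 589 to 1151 lower calls, against 1369 and 1190; the count of higher calls fell by over 1.5 times without irinotecan replicate 1 (804), and that of lower calls without DMSO replicate 2 (726) or irinotecan replicate 1 (589). With the replicate number as a block, 1808 were higher and 1820 lower; same-numbered libraries deviated together weakly (correlations of 0.12, 0.04 and 0.085), every library correlated best with its own number, and the labels do not say that a number marks a shared batch, so the numbers were not taken as pairs. The smallest p of the ratios, 0.1, cannot pass 0.05 with 3 libraries a group, and genes of under a few CPM, such as Irf8, rest on few counts.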
